A study of Mus musculus with 12 samples.

Results

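The genes described here are the 33 ligand genes of the transforming growth factor beta (TGF-beta) superfamily, taken from a fixed list of symbols, among 21627 protein-coding genes on chromosomes 1 to 19 and X. They comprise 3 TGF-beta genes, 5 activin and inhibin subunit genes, Nodal and its antagonists Lefty1 and Lefty2, myostatin (Mstn) and Gdf11, 10 bone morphogenetic protein (BMP) genes, 9 other growth and differentiation factor (GDF) genes and Amh. All 33 symbols were found in the RefSeq gene table, and no measured value chose them.

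Chromatin was profiled by Cut & Run, in which an antibody directs a nuclease to a protein or histone mark and the released fragments are sequenced. The cells were mouse embryonic fibroblasts labelled fbxw7 KO (KO) or WT, both grown in DMEM with FBS and NEAA, and the antibodies were against H3K4me3, H3K4me1 and MLL4, with 2 libraries per antibody and genotype (12 libraries in 6 groups). The labels give no strain, no age and no part of Fbxw7 that was deleted. Nor do they tell whether the 2 libraries of each group stem from separate cultures, so the p-values below concern only these libraries. With 2 against 2 libraries, groups that do not overlap all give the same permutation p, whatever their spread. H3K4me3 peaks over Fbxw7 numbered 1 and 1 in KO, against 2 and 3 in WT, which does not check the genotype.

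TGF-beta ligands are secreted dimers that bring together type I and type II receptor kinases. TGF-betas, activins, Nodal, myostatin and Gdf11 signal mainly through Smad2 and Smad3, and BMPs and many GDFs through Smad1, Smad5 and Smad9. In fibroblasts TGF-beta is known for driving matrix production, while many other ligands act in the early embryo, the gonads or the skeleton. H3K4me3 is a mark of active promoters and H3K4me1 a mark common at enhancers, which MLL4 (the product of Kmt2d) helps to deposit. Fbxw7 is the substrate-recognition subunit of a ubiquitin ligase.

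Where a ligand gene had a listed promoter, no KO H3K4me3 peak touched it, and WT peaks touched a minority. Promoters of 300 bases (250 before to 50 after a RefSeq start, GRCm38.p6, the coordinates of mm10) were listed for 22 of the 33 genes, in 24 entries. An H3K4me3 peak touched 0 and 0 of these entries in KO, against 8 and 4 in WT. Over all 32619 listed promoters the numbers were 4569 and 5234 in KO, against 12189 and 10702 in WT. The promoters below are those of Tgfb1 and Gdf11, which had peaks in all 4 H3K4me3 libraries, of Gdf1, Bmp8a and Gdf7, which had them in both WT libraries and in neither KO library, and of Bmp5 and Bmp8b, which had none. They are shown because the density of CG pairs, in capitals, differs widely among them. Each reads 5′ to 3′ on the strand of its gene.
Tgfb1 promoter, chr7:25686752-25687051, plus strand: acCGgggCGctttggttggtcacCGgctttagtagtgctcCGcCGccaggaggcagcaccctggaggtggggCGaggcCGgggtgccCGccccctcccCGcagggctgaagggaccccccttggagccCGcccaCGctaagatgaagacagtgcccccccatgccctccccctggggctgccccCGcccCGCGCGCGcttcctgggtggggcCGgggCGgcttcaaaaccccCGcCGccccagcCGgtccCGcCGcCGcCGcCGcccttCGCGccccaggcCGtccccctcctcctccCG
Gdf11 promoter, chr10:128891669-128891968, minus strand: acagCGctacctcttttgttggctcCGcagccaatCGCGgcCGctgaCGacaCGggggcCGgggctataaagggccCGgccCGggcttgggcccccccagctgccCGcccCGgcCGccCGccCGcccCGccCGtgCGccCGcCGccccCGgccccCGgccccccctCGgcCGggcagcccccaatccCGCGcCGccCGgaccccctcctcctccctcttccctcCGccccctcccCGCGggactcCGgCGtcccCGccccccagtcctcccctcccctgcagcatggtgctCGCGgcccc
Gdf1 promoter, chr8:70315525-70315824, plus strand: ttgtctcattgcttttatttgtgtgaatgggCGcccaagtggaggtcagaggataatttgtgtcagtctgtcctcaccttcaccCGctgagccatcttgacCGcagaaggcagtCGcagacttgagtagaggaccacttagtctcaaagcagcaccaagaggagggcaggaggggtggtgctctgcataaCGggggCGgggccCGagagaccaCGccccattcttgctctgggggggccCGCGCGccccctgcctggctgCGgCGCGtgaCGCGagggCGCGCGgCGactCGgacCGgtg
Bmp8a promoter, chr4:123343203-123343502, minus strand: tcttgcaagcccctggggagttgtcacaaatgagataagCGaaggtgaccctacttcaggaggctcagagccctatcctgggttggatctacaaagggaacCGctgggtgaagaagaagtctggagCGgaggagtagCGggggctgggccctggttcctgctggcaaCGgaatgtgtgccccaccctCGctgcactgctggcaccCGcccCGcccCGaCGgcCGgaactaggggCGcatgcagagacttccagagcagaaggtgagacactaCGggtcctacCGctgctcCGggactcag
Gdf7 promoter, chr12:8301905-8302204, minus strand: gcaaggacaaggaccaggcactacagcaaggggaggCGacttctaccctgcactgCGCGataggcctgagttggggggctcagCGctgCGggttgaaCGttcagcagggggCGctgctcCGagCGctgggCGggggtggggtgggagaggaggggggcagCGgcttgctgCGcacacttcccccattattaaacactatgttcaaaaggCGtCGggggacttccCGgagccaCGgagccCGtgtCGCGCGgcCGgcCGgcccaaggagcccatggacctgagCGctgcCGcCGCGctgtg
Bmp5 promoter, chr9:75775115-75775414, plus strand: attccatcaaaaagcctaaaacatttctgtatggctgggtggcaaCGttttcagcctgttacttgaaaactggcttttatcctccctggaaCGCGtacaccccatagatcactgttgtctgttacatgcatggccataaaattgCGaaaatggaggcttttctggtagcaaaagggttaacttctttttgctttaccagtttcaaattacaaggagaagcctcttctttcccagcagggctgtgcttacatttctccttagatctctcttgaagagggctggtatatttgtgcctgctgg
Bmp8b promoter, chr4:123104911-123105210, plus strand: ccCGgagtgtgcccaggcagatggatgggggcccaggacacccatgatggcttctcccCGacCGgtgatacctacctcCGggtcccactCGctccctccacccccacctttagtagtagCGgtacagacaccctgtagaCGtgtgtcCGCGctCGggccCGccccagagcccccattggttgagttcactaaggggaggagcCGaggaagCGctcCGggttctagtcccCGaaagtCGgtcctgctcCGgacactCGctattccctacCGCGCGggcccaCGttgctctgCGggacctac

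The Tgfb1 promoter holds 30 CG pairs and that of Gdf11 36. Those of Gdf1, Bmp8a and Gdf7 hold 22, 15 and 26. Bmp5 has 4, and Bmp8b, which is a close relative of Bmp8a on the same chromosome, has 23 but no peak in any library, so a high count did not always go with a peak. Nor did a low count always go without one, as promoters not printed here show. Those of Inha and Tgfb2, with peaks over the gene in all 4 libraries, hold 5 and 10. The 2 entries of Gdf15, with peaks in both WT libraries alone, hold 7 and 1. No H3K4me3 peak touched these entries themselves. The median number of CG pairs was 20 over the 4 listed promoters of genes with peaks in all 4 libraries, 13.5 over the 8 of genes with peaks in both WT libraries alone, 23 over the 3 of genes with other patterns and 5 over the 9 of genes without a peak. Over all 32619 promoters the median was 7. Sorted by peaks on the promoter itself, it was 21 over promoters touched in all 4 libraries, 22 over those touched in both WT libraries alone and 4 over those touched in none. The letters GGGCGG, searched on both strands, were present in 2 of the 4, 6 of the 8, 2 of the 3 and 1 of the 9 promoters of these classes, in the same order. They were in 35.9% of all promoters, in 64.9% of those touched in all 4 libraries, in 70.1% of those touched in WT alone and in 16.6% of those touched in none. TATAAA, also searched on both strands, was in 2 of the 4, 0 of the 8, 1 of the 3 and 3 of the 9. It was in 13.7% of all promoters, in 4.55% of those touched in all 4 libraries, in 6.55% of those touched in WT alone and in 18.4% of those touched in none. These are descriptions of letters within 300 bases, and 2 entries each belong to Gdf1 and Gdf15.

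H3K4me3 peaks covered fewer ligand genes, and fewer bases, in KO than in WT. A gene was scored on its body plus 1 kb either side, and a peak sharing 1 base counted. The number of ligand genes with a peak was 8 and 9 in the KO libraries, against 19 and 18 in the WT libraries, so the groups did not overlap (8.5 ± 0.707 in KO and 18.5 ± 0.707 in WT, SD, n = 2 each; exact two-sided permutation p = 0.333, the smallest that 2 against 2 libraries allow). Over all genes the numbers were 9745 and 10305 in KO, against 13202 and 12698 in WT. The log2 KO/WT of the mean number was -1.12 for the ligand genes and -0.37 for all genes. Bases under H3K4me3 peaks over the ligand genes summed to 5484 and 6244 in KO, against 29151 and 21608 in WT, a log2 KO/WT of -2.11 (exact two-sided permutation p = 0.333). The same log2 ratio was -1.49 over all genes. For the ligand genes it was -1.09 with lists of equal length and -5.78 with peaks of −log10 q 10 or more.

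The KO and WT lists differ as a whole, and the cause of that was not tested. They held 10397 and 11281 H3K4me3 peaks in KO, against 17460 and 16078 in WT. The median peak length was 540 and 579 bp in KO, against 1218 and 1054 bp in WT. Depth was 5519477 and 5938102 filtered fragments in KO, against 11319701 and 6185767 in WT, so WT replicate 1 was the deepest while WT replicate 2 was close to the KO libraries. In bulk chromatin a lower signal in every cell and a signal in fewer cells cannot be told apart. Where no peak was called, the site failed the caller's cutoff in that library, and the mark may still be there. Of 18 fibroblast marker genes, 10 and 11 had an H3K4me3 peak in KO, against 18 and 17 in WT. None of 5 pluripotency and none of 4 myogenic markers had one in any library, while the neural genes Tubb3, Map2 and Nes (of 5 neural markers) and the haematopoietic gene Spi1 (of 6) had one in both WT libraries and in neither KO library. Kdr, 1 of 5 endothelial markers, and Epcam, 1 of 6 epithelial markers, were the others with a peak in at least 1 library.

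Peaks in both WT libraries and in neither KO library, called WT-only, were found at 8 of the 33 ligand genes (24.2%), namely Bmp2, Bmp3, Bmp4, Bmp8a, Gdf1, Gdf7, Gdf10 and Gdf15. Among all genes 7.73% were WT-only. Of genes with a peak in both WT libraries, 8 of 18 ligand genes (44.4%) and 13.2% of all genes were WT-only. A peak in at least 1 library was found at 19 ligand genes (57.6%), beside 61.4% of all genes. No ligand gene was KO-only (peaks in both KO libraries and in neither WT library), against a background of 0.0%. When every list was kept to its best 10397 peaks, the length of the shortest, 8 and 7 ligand genes had a peak in KO, against 7 and 8 in WT. Gdf1 was then the 1 WT-only ligand gene, where the background was 1.85%, and Lefty1 the 1 KO-only ligand gene among 145 KO-only genes overall (0.67% of all genes). With peaks of −log10 q 10 or more, 9 of the 10 ligand genes with a peak in both WT libraries were WT-only, and so were 70.1% of all such genes. The WT-only count therefore depends on where the lists end.

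**Figure D1:**
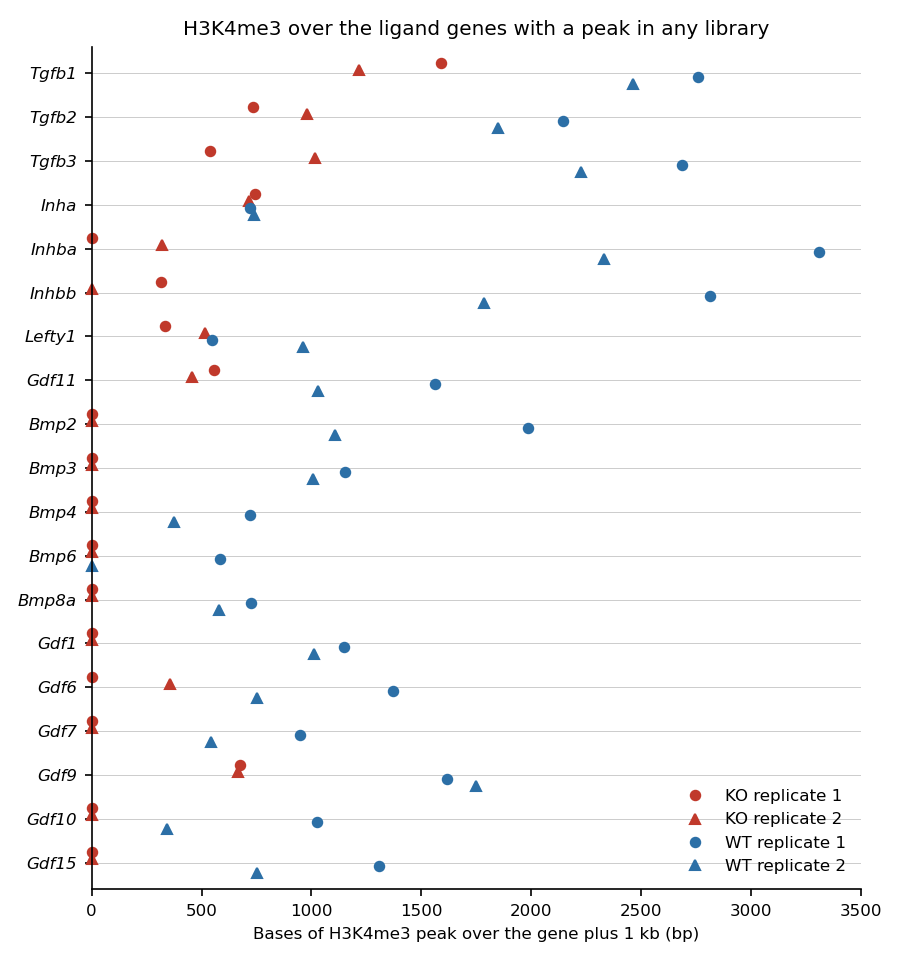
Bases of H3K4me3 peak (bp, x axis) over the gene plus 1 kb for the 19 ligand genes with a peak in at least 1 library, with 1 marker per library, KO in red and WT in blue. Most KO markers lie left of the WT markers of the same gene, while all 4 markers of Inha lie between 717 and 743 bp. The window cuts the Inha peaks, and in WT their greater part lies outside it.

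Over the gene plus 1 kb the TGF-beta genes were marked in all 4 libraries. Within 1 kb of a listed start this held for Tgfb1, while Tgfb2 was WT-only there. Tgfb3, which has no listed promoter, was not marked in all 4 libraries within 1 kb of its gene ends. Tgfb1, the main TGF-beta of fibrosis and immune control, carried 1589 and 1219 bp of H3K4me3 peak in KO, against 2758 and 2463 bp in WT. Tgfb2, which acts in heart and craniofacial development, carried 736 and 981 bp in KO, against 2147 and 1848 bp in WT. Tgfb3, needed for fusion of the palate, carried 537 and 1015 bp in KO, against 2688 and 2228 bp in WT. At Tgfb3 the peaks of KO replicate 1 and KO replicate 2 shared only 8 bases. For all 3 genes both KO libraries lay below both WT libraries. At Tgfb1 the WT peak was a single block in each library, with its upstream edge at -108 and -111 bp from the start (chr7:25686894-25689651 in WT replicate 1), which covered 158 and 161 bases of the promoter printed above. The first KO peaks began at 701 and 265 bp, downstream of the start, and in KO replicate 2 there were 3 separate ones. B9d2 lies within 1 kb of these WT peaks, so signal there cannot be assigned to Tgfb1 alone.

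Tgfb2 peaks lay inside the gene in every library. Their strongest summits were 1357 and 1947 bp downstream of the nearest listed start in KO, against 2172 and 2127 bp in WT, and none of its peaks reached a promoter entry. The WT peaks of Tgfb2 thus also lay downstream of the listed promoter, unlike those of Tgfb1. Within 1 kb of the strongest Tgfb2 peaks lies the noncoding gene Gm35655.

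**Figure D2:**
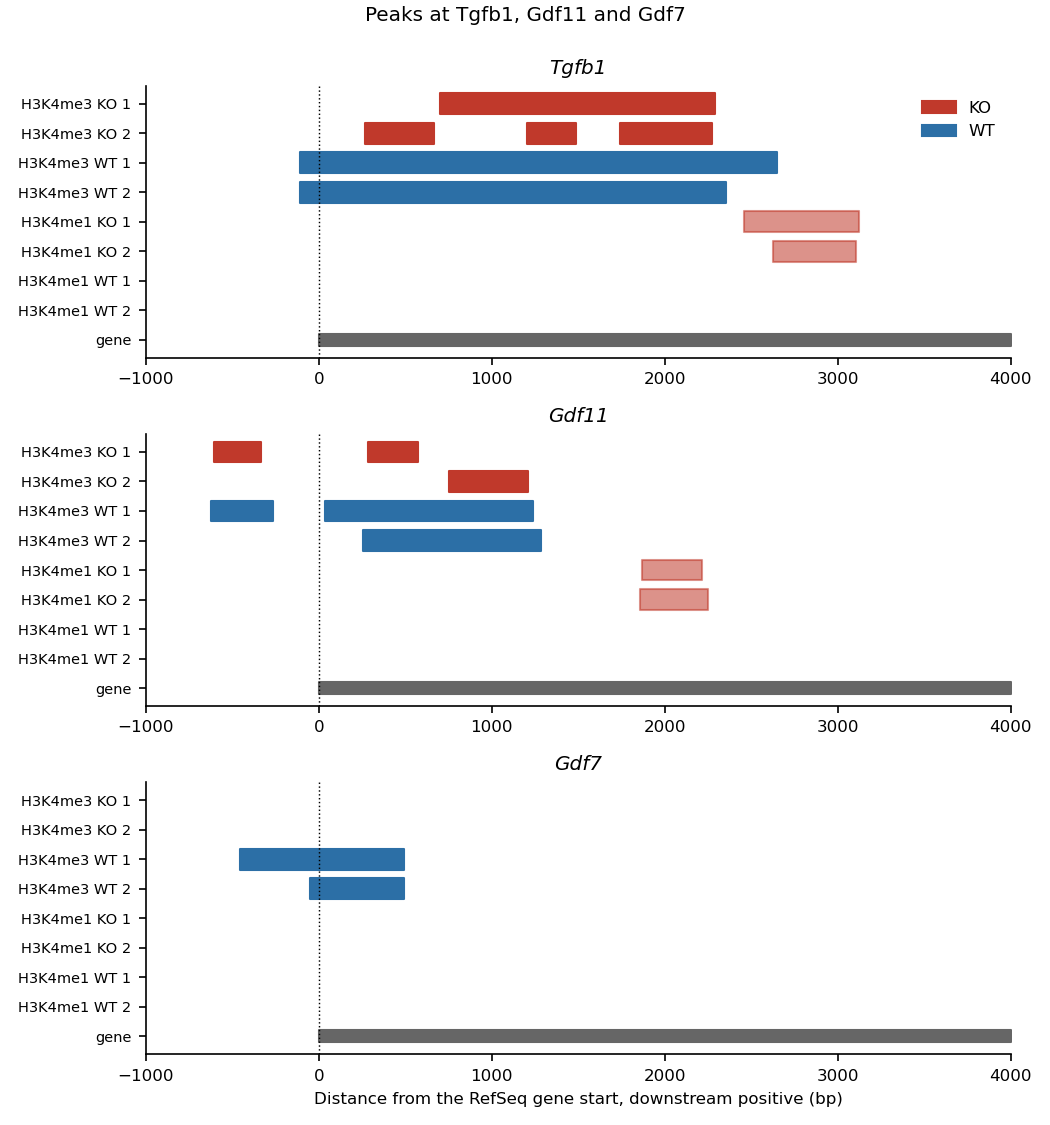
Positions of H3K4me3 peaks (solid) and H3K4me1 peaks (pale) around Tgfb1, Gdf11 and Gdf7, with 1 row per library, KO in red above WT in blue, against the distance from the RefSeq start in bp. The WT H3K4me3 peaks at Tgfb1 cross the start and the KO peaks do not, H3K4me1 peaks downstream of Tgfb1 and Gdf11 are present in KO rows only, and Gdf7 has WT H3K4me3 peaks only.

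The activin and inhibin subunit genes fell into 3 patterns. Inha, the alpha subunit of inhibin, which restrains follicle-stimulating hormone, had 743 and 717 bp in KO, against 723 and 738 bp in WT. The KO and WT libraries overlapped, but the peaks reached the window from the start of the neighbouring gene Obsl1. In WT the whole peaks were 1911 and 1778 bp long, so their greater part was not counted for Inha. Inhba, whose product forms activin A, had 0 and 318 bp in KO, against 3312 and 2334 bp in WT. Inhbb, whose product forms activin B, had 314 and 0 bp in KO, against 2815 and 1785 bp in WT. Inhba and Inhbb each had a peak in 1 KO library only, under 320 bp, and both WT libraries were far above it. The strongest WT peaks at Inhba lay 7301 and 6175 bp downstream of the nearest listed start, and at Inhbb 2764 and 2734 bp downstream. The Inhba peaks lie within 1 kb of the noncoding gene B230303A05Rik. Inhbc and Inhbe, expressed mainly in liver, had no H3K4me3 peak in any library.

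Nodal, which patterns the mesendoderm and the left side of the embryo, and Lefty2 had no H3K4me3 peak. Lefty1, a secreted Nodal antagonist, had 332 and 516 bp in KO, against 550 and 962 bp in WT. Both KO libraries were below both WT libraries in bases. The log2 KO/WT of the bases was -0.83 at Lefty1, beside -0.89 at Tgfb1, -1.22 at Tgfb2 and -1.66 at Tgfb3. The 4 Lefty1 peaks overlapped in a narrow stretch inside the gene (chr1:180936479-180936810 in KO replicate 1). The noncoding gene Gm39715 lies within 1 kb of all 4, so they cannot be assigned to Lefty1 alone. In its own list the Lefty1 peak stood at percentile 72.4 and 39.2 in KO, against 20.1 and 16.8 in WT, where 100 is the strongest peak; percentiles from lists of different length show no change.

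Lefty1 stood apart in summit height from the other ligand genes with a peak in all 4 libraries. The authors' summit pileup, the number of fragments over the highest point of a peak, was set against the library's depth, per 1000000 filtered fragments. At Lefty1 it was 2.90 and 2.19 in KO, against 2.65 and 2.75 in WT, with a log2 KO/WT of -0.09, so the groups overlapped. At Tgfb1 the same quantity was 4.17 and 3.87 in KO, against 13.4 and 12.0 in WT, with a log2 KO/WT of -1.66. At Tgfb2 it was 3.08 and 3.03 in KO, against 8.75 and 9.54 in WT, and at Tgfb3 3.26 and 3.87 in KO, against 9.72 and 10.2 in WT. Of the 7 ligand genes with a peak in all 4 libraries, the 6 other than Lefty1 had both KO pileups below both WT pileups. Peaks in all 4 libraries were found at 21.2% of ligand genes, beside 41.8% of all genes, and these 9038 genes had a median log2 KO/WT of -1.46 (quartiles -1.63 and -1.28). Only 24 of the 9038 genes (0.266%), Lefty1 among them, had a value at or above that of Lefty1. The 9038 genes were chosen by a called peak in both KO libraries too. A site weak in WT thus entered only if its KO peak also passed the caller's cutoff. The Lefty1 peak was weak in WT, at percentile 20.1 and 16.8, where the 9038 genes had medians of 75.8 and 73.5. The part of this in the Lefty1 ratio and its rank was not tested. Behind the Lefty1 value are 16 and 13 fragments at the summit in KO, against 30 and 17 in WT, and the gene was singled out after its value was seen. Division by depth does not correct for background, and duplicates were limited to 2 fragments per position in WT replicate 1 and to 1 in the other 3 libraries.

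**Figure D3:**
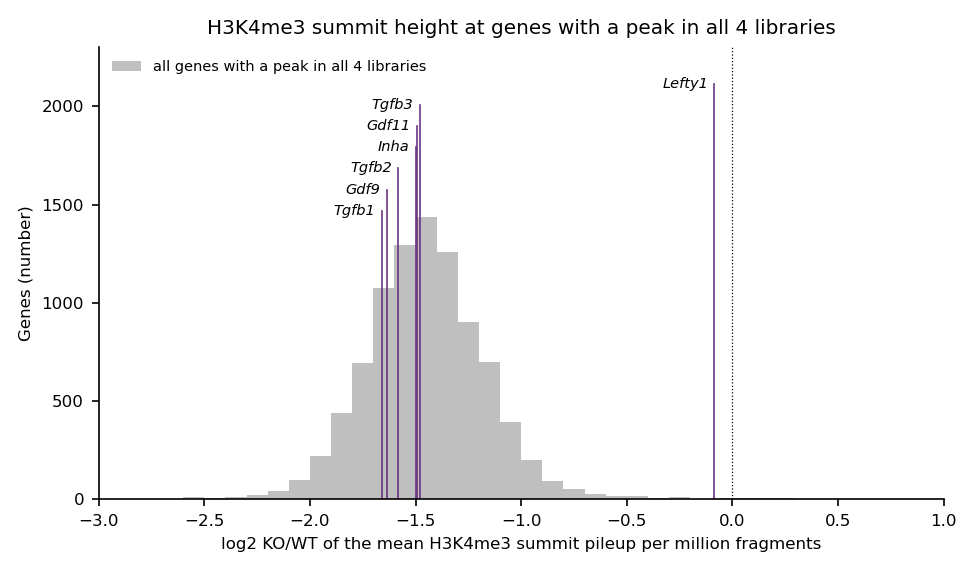
Number of genes (y axis) by log2 KO/WT of the mean H3K4me3 summit pileup per 1000000 fragments (x axis), for the 9038 genes with a peak in all 4 libraries (grey bars, 0.1 wide), with the 7 ligand genes as labelled lines. The lines of 6 ligand genes fall within the main body of the bars and that of Lefty1, at -0.09, lies to the right of nearly all genes.

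Gdf11, which patterns the axial skeleton, had 558 and 457 bp of H3K4me3 in KO, against 1564 and 1030 bp in WT. Both KO libraries were below both WT libraries, and the summit pileup per 1000000 fragments was 3.08 and 2.36 in KO, against 7.86 and 7.44 in WT. The Gdf11 peaks of KO replicate 1 shared no base with that of KO replicate 2. Peaks covered 16 bases of the printed Gdf11 promoter in WT replicate 1 and none in WT replicate 2. Mstn, a relative of Gdf11 that limits muscle mass, had no peak. Across the 7 genes marked in all 4 libraries the width ratio (log2 KO/WT of the bases) had a median of -1.22 and ran between -1.66 at Tgfb3 and -0.00 at Inha, beside a median of -1.12 over the 9038 genes (quartiles -1.56 and -0.78). Tgfb3 and Inha lay outside these quartiles and the other 5 inside them.

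None of the 10 BMP genes had an H3K4me3 peak in either KO library, and 5 of them had one in WT. Of the 10, 4 were WT-only, beside 7.73% of all genes. Their best peaks stood low in the lists of WT replicates 1 and 2. The percentiles were 20.1 and 23.9 at Bmp2, 13.3 and 6.95 at Bmp3, 13.2 and 27.7 at Bmp4, and 28.4 and 13.1 at Bmp8a. With lists of equal length none of these 4 genes was WT-only, so this contrast depends on where the lists end. Bmp2, which acts in bone and heart formation, had 0 bp in KO, against 1988 and 1106 bp in WT. Bmp3, a secreted restraint on bone formation, had 0 bp in KO, against 1153 and 1008 bp in WT. Bmp8a, which supports spermatogenesis, had 0 bp in KO, against 726 and 579 bp in WT. The WT peaks of Bmp3 and Bmp8a lay at an end of the gene, and the strongest summits of Bmp2 lay 2147 and 2143 bp inside it. Those of Bmp3 lie within 1 kb of the noncoding gene Gm34563. At Bmp8a the peaks covered 291 and 297 bases of the printed promoter. In WT, −log10 q was 11.5 and 9.44 at Bmp2, 8.11 and 4.91 at Bmp3 and 16.6 and 6.47 at Bmp8a.

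Bmp4, a signal for mesoderm and limb formation, had 0 bp in KO, against 723 and 376 bp in WT. The 2 WT summits lay 3310 and 3120 bp downstream of the RefSeq start, over the start of the long noncoding RNA gene Gm15222. Bmp6, a regulator of iron balance, had a peak in WT replicate 1 only, of 584 bp, within 1 kb of the noncoding gene Gm47990. Bmp5 (ear and rib skeleton), Bmp7 (kidney and eye), Bmp8b, Bmp10 (heart) and Bmp15 (oocyte) had none in any library.

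Among the other GDF genes, Gdf1, a partner of Nodal, had 0 bp of H3K4me3 in KO, against 1149 and 1012 bp in WT. Its WT peaks, with −log10 q of 31.7 and 14.4, covered 221 and 95 bases of the printed promoter, which is also the start of Cers1, a ceramide synthase gene that shares its transcript. Gdf7, a roof plate signal for spinal cord interneurons, had 0 bp in KO, against 949 and 543 bp in WT, and its WT peaks covered 300 and 99 bases of the promoter printed above. Ldah lies within 1 kb of them. Gdf10, a relative of Bmp3, had 0 bp in KO, against 1025 and 344 bp in WT, within 1 kb of the noncoding gene Gm30031. Gdf15, a stress hormone that acts on the hindbrain, had 0 bp in KO, against 1308 and 752 bp in WT. The WT peaks of Gdf15 lay 1906 and 1949 bp downstream of its nearest listed start, near the other end of a gene of 3078 bp. All 4 genes had no peak in either KO library.

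Gdf9, an oocyte factor, had 675 and 664 bp in KO, against 1618 and 1748 bp in WT. Both KO libraries were lower than both WT libraries. The mitochondrial complex III gene Uqcrq lies within 1 kb of these peaks, so they cannot be assigned to Gdf9 alone. Gdf6, a joint and eye factor, had 0 and 357 bp in KO, against 1371 and 752 bp in WT. Gdf2, Gdf3 and Gdf5 had no H3K4me3 peak, nor had Amh, the anti-Müllerian hormone gene.

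The strongest WT peaks of the 8 WT-only ligand genes had a median percentile of 22.8 in the list of WT replicate 1 and 25.6 in that of WT replicate 2. All WT-only genes had medians of 32.1 and 24.6 in these lists, and all 9038 genes marked in all 4 libraries had 75.8 and 73.5. The ligand genes marked in all 4 libraries had 58.9 and 73.5. The percentiles of the WT-only ligand genes ran between 3.87 and 47.8 in WT replicate 1 and between 6.95 and 46.8 in WT replicate 2, while WT-only genes overall reached 97.1 and 97.4.

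Other genes of the pathway are given beside the 7.73% of all genes that were WT-only. WT-only genes were 4 of 14 receptors, 1 of 8 Smads, 2 of 19 inhibitors and 2 of 14 targets. Of 14 receptor genes 7 and 8 had an H3K4me3 peak in KO, against 13 and 12 in WT, and Tgfbr1, Eng, Acvrl1 and Bmpr1b were WT-only (the type I TGF-beta receptor, its co-receptor endoglin, and 2 further type I receptors). Of 8 Smad genes 5 and 5 were marked in KO, against 8 and 8 in WT, with Smad2 WT-only. Of 19 genes for extracellular inhibitors and latency proteins 14 and 14 were marked in KO, against 17 and 17 in WT, with Fst (follistatin, which binds activin) and Sostdc1 (a BMP antagonist) WT-only. Of 14 known target genes 8 and 12 were marked in KO, against 14 and 13 in WT, with Tgfbi (a matrix protein) and Junb (an AP-1 subunit) WT-only. No gene in the 4 lists was KO-only for H3K4me3. For H3K4me1 none was WT-only, beside 2.77% of all genes. Msx2, a homeobox target of BMP, was the only KO-only gene for H3K4me1, beside 1.63% of all genes. The share marked in all 4 libraries was 7 of 14 receptors, 3 of 8 Smads, 13 of 19 inhibitors and 8 of 14 targets, beside 7 of 33 ligands and 41.8% of all genes.

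H3K4me1 peaks were found over similar numbers of ligand genes in both genotypes. The number of ligand genes with an H3K4me1 peak over the gene plus 1 kb was 12 and 10 in KO, against 11 and 7 in WT, with overlapping groups (11 ± 1.41 in KO and 9 ± 2.83 in WT, SD, n = 2 each; exact two-sided permutation p = 0.667). Depth was 13627038 and 12611409 fragments in KO, against 12607690 and 11604131 in WT. Bmp3, Bmp5, Bmp6, Gdf15, Tgfb2 and Inhba had a peak in all 4 libraries (18.2%, background 30.6%). A peak in at least 1 library was found at 16 genes (48.5%, background 59.1%), and 17 of the 33 genes had none. Only Bmp4 was WT-only for H3K4me1 (3.03% of ligand genes, background 2.77%; of those with a peak in both WT libraries 1 of 7, background 7.18%). Tgfb1, Gdf5, Gdf9 and Gdf11 were KO-only (12.1% of ligand genes, background 1.63%; of those with a peak in both KO libraries 4 of 10, background 4.53%). Without WT replicate 2 the difference between the genotype means was 0 and 4 genes were WT-only. The 4 KO-only calls rest on peaks of −log10 q under 10, and none of them was left at that threshold. At Gdf5 the peaks of KO replicate 1 shared no base with that of KO replicate 2, which lay outside the gene, within 1 kb of its end.

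At Tgfb1 the KO H3K4me1 peaks (chr7:25689458-25690124 and chr7:25689630-25690108) lay at the downstream edge of the WT H3K4me3 block. They shared 194 and 22 bases with the block of WT replicate 1 and none with that of WT replicate 2. At Gdf9 the KO H3K4me1 peaks lay at the edge of the WT H3K4me3 peaks inside the gene, and shared no base with the KO H3K4me3 peaks. Of the 547 bp peak of KO replicate 1, 333 and 487 bases lay under the WT H3K4me3 peaks, and of the 407 bp peak of KO replicate 2, 337 and 407 bases. At Gdf11 the KO H3K4me1 peaks (chr10:128889504-128889847 and chr10:128889471-128889858) touched no H3K4me3 peak, and Gdf5 had no H3K4me3. Thus 2 of the 3 KO-only genes with WT H3K4me3 had a KO H3K4me1 peak that touched it, against 89 of 247 such genes overall (36.0%). For Tgfb1 the contact rests on WT replicate 1 only. At Bmp4 the WT H3K4me1 peaks overlapped the WT H3K4me3 peaks at Gm15222.

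Within 50 kb of the ligand genes, H3K4me1 peak numbers overlapped between genotypes. The 33 windows merge into 30, which cover 3803247 bp and held 110 and 107 peaks in KO, against 113 and 103 in WT (108.5 ± 2.12 in KO and 108 ± 7.07 in WT, SD, n = 2 each; exact two-sided permutation p = 1). With lists of equal length the KO mean was higher by 14 peaks (exact two-sided permutation p = 0.333), and with a window of 100 kb the difference, KO minus WT, was -16. The peaks were 0.184% and 0.201% of the KO lists, against 0.182% and 0.182% of the WT lists. Lefty1 and Lefty2, Inhbc and Inhbe, and Gdf2 and Gdf10 are neighbours and share part of their windows.

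The 5 genes with the most peaks summed over the libraries were Bmp6, Tgfb2, Gdf15, Lefty2 and Lefty1. Bmp6 had 10 and 11 in KO, against 7 and 9 in WT, and both KO counts were higher. Tgfb2 had 7 and 5 in KO, against 7 and 12 in WT, where WT replicate 2 stood above the rest. Gdf15 had 8 and 7 in KO, against 7 and 8 in WT, with the same 2 counts in each genotype. Per length of window Gdf15 came first with a mean of 7.28 peaks per 100 kb over the 4 libraries, then Lefty2 with 7.08, and Bmp7 last with 0.145.

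Counts did not overlap between genotypes at 11 ligand genes. Both KO counts were below both WT counts at 5 (15.2%, background 16.6%) and above them at 6 (18.2%, background 7.25%). Lower in KO were Gdf10 (0 and 1 in KO, against 3 and 4 in WT) and Bmp4 (0 and 1 in KO, against 4 and 2 in WT). Lefty2 had 6 and 7 in KO, against 9 and 8 in WT. Lefty1 had 6 and 6 in KO, against 7 and 7 in WT, and Amh had 4 and 4 in KO, against 7 and 5 in WT. The gap between the higher KO count and the lower WT count was 1 peak at Bmp4, Lefty1, Lefty2 and Amh, less than at Gdf10. With 1 library left out, the remaining KO counts lay below the remaining WT counts at 9 genes (without KO replicate 1), 8 (without KO replicate 2), 9 (without WT replicate 1) and 12 (without WT replicate 2). They lay above them at 10 genes without KO replicate 2 and at 10 without WT replicate 1. Bmp4 and Gdf10 were also WT-only for H3K4me3, and both had at most 1 KO peak of H3K4me1 within 50 kb. The other WT-only genes for H3K4me3 did not share this. Bmp3 was higher in KO for H3K4me1, and the counts of Bmp2, Bmp8a, Gdf1, Gdf7 and Gdf15 overlapped between genotypes. Bmp2 and Bmp8a too had at most 1 KO peak. The share of all genes with both calls was not counted.

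Higher in KO were Inhbc (5 and 5 in KO, against 1 and 2 in WT) and Gdf11 (6 and 7 in KO, against 4 and 3 in WT). Inhbe had 4 and 3 in KO, against 1 and 2 in WT, and Bmp3 had 7 and 7 in KO, against 5 and 5 in WT. Bmp6 is given above, and Mstn, the last of the 6, had 2 and 1 in KO, against 0 and 0 in WT. At Bmp6, Inhbe and Mstn the lower KO count and the higher WT count were adjacent numbers (10 and 9, 3 and 2, 1 and 0). Inhbc, Inhbe and Gdf11 are on chromosome 10, where 23.5% of all genes had more peaks in KO and 5.59% had fewer, and Inhbc and Inhbe share a window. Chromosome 10 held 7.33% and 7.54% of the KO H3K4me1 peaks, against 5.94% and 5.96% of the WT peaks. Mean summit pileup there, relative to the other autosomes, was 1.16 and 1.16 in KO, against 1.01 and 1.00 in WT. The part of this in the counts of the 3 genes was not tested. Amh, also on chromosome 10, went the other way.

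**Figure D4:**
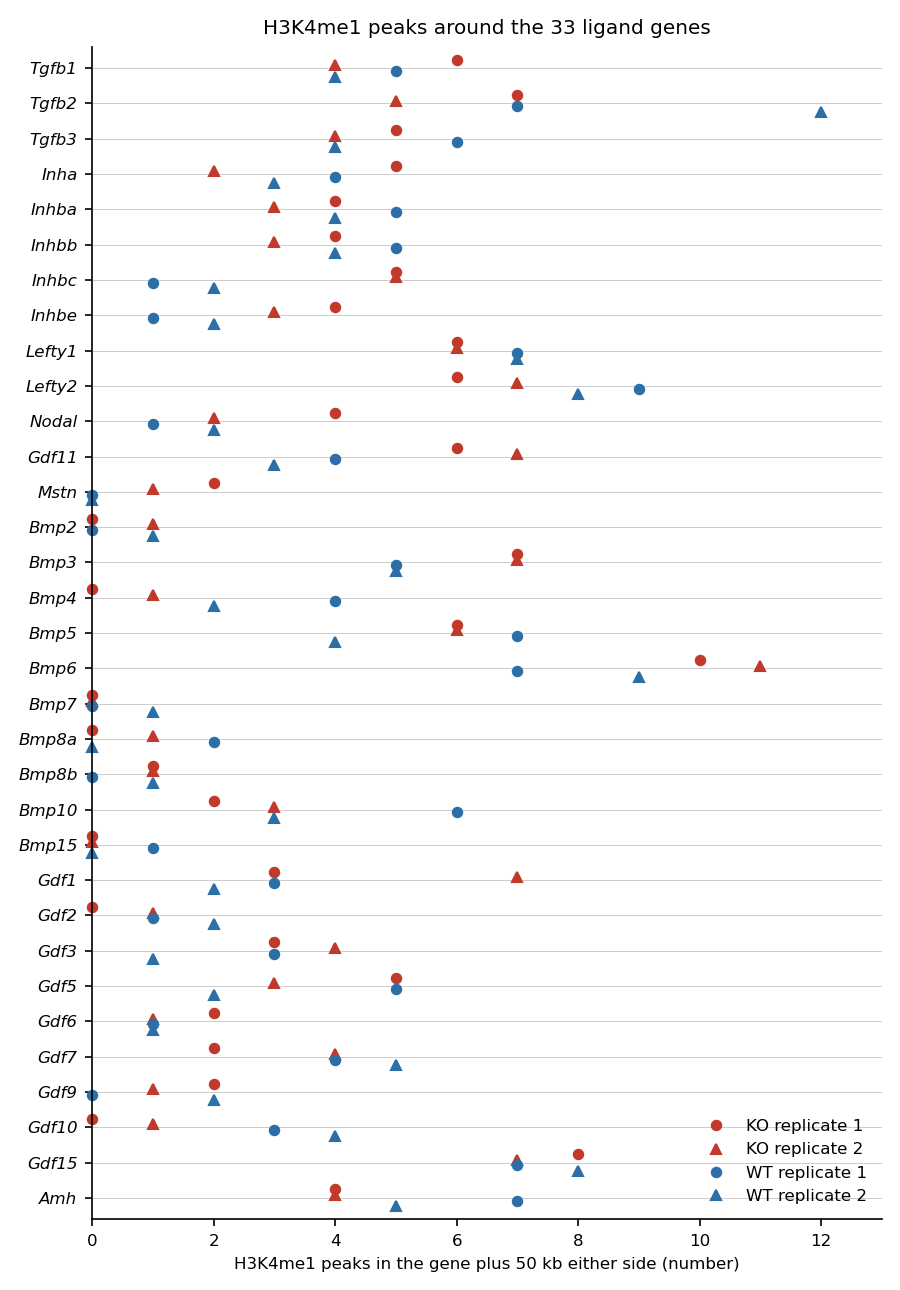
Number of H3K4me1 peaks (x axis) within 50 kb of each of the 33 ligand genes, with 1 marker per library, KO in red and WT in blue. KO and WT markers interleave at most genes. They are apart with KO higher at Bmp3, Bmp6, Gdf11, Mstn, Inhbc and Inhbe, and with KO lower at Bmp4, Gdf10, Lefty1, Lefty2 and Amh.

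No MLL4 peak lay within 50 kb of a ligand gene in any library. The MLL4 lists held 49 and 40 peaks in KO, against 60 and 69 in WT, from 5743404 and 4435103 fragments in KO, against 5629819 and 5838305 in WT. The nearest peaks were 6474483 bp from Inhbb and 230944 bp from Bmp15 in KO, against 90149 and 90131 bp from Gdf15 in WT. Lists this short allow no comparison of MLL4 at these genes.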

How the data were processed

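The libraries are Cut & Run profiles of H3K4me3, H3K4me1 and MLL4 in mouse embryonic fibroblasts, grouped by genotype and antibody from the sample labels. The submitters' processing notes name the mm10 build and list HOMER 4.10, deepTools, MACS2, bedtools, SAMtools 1.5 and Bowtie2 without saying what each did. MACS2 2.1.0.20150731 was run on every library separately, in paired-end mode and with no control library, per the file headers, which record a q cutoff of 0.01, a local background window of 10000 bp and an extension of 147. Each deposited list gives the position of a peak, its summit pileup signal, a fold ratio over background and −log10 q. These values come from the authors' peak caller and served only to rank, filter or describe the peaks of a library, except that summit pileup per filtered fragment was also set side by side between libraries.

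The RefSeq genes of GRCm38.p6 on chromosomes 1 to 19 and X were overlapped with the peaks. Strand and gene start were used where a promoter entry gives them. Genes were scored on the gene plus 1 kb, and H3K4me1 also on the gene plus 50 kb, with an overlap of 1 bp. Presence calls were read against the same call over all genes. Values per library were compared with exact two-sided permutation tests over 6 assignments, which cannot pass 0.05, so no difference is called a rise or a fall. The counting was tested on simulated peak lists. Alternatives were other thresholds, equal list lengths, other windows and overlaps, fewer chromosomes and leaving out each library. Named genes were those with H3K4me3 in both libraries of a genotype, those called for H3K4me1, and those with the most or the most different H3K4me1 counts within 50 kb. The ligand genes, the pathway lists and the tests were chosen with earlier results of these data known. A gene of the target list is not reported here and was left out of its counts. Python 3.11.15, pandas 2.3.3 and numpy 2.4.6 were used. Depth ranged between 4435103 and 13627038 filtered fragments per library, and no counts per gene were used, so precision rests on 2 libraries per group.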

Additional observations from a re-analysis of the deposited data

How the results depend on the processing

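Under 113 alternative values, 81 kept their direction or their size, 25 moved and 7 turned round. No test could pass its threshold under any of them. Some of the 81 could not change, since the replicate block alters only the p-value and no library had an MLL4 peak near a ligand gene. A count that kept its size could hold other genes. At −log10 q of 10 or more the H3K4me3 WT-only genes were Gdf1, Gdf7, Gdf9, Gdf11, Gdf15, Inhbb, Tgfb1, Tgfb2 and Tgfb3. With 1 kb around the start they were Bmp2, Bmp3, Bmp8a, Gdf1, Gdf7, Gdf10, Tgfb2 and Inhbb. With lists of equal length the difference in ligand genes with H3K4me3 (KO minus WT) was 0, WT-only and KO-only were 1 each, the log2 ratio of bases was -1.09, the 50 kb H3K4me1 difference was 14, and H3K4me1 counts were lower in KO at 2 genes and higher at 10. With at least 50% of a peak inside the window, 1 gene was KO-only for H3K4me3 and the difference in H3K4me1 peaks within 50 kb was -1. At −log10 q of 10 or more the log2 ratio of bases was -5.78, the H3K4me1 difference in genes was 0, WT-only 0 and KO-only 0, the 50 kb difference was -2.5 and 1 gene was higher in KO. With 1 kb around the start H3K4me1 WT-only was 0 and KO-only 2, and with the gene plus 5 kb the H3K4me1 difference was -0.5 and KO-only 2. Without chromosomes 4, 10, 16 and 19 the 50 kb difference was -6 and 3 genes were higher in KO. A window of 25 kb left 2 genes lower in KO, one of 100 kb gave 9 and a difference of -16, and as a share of the list 10 genes were higher in KO. The causes were not tested.

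Leaving out 1 library at a time gave differences of -10.5 to -9.5 in genes with H3K4me3, 8 to 10 WT-only genes, a log2 KO/WT of bases of -2.31 to -1.88, H3K4me1 differences of 0 to 4 with 1 to 4 WT-only and 4 to 5 KO-only genes, 50 kb differences of -4.5 to 5.5, and 8 to 12 genes lower and 8 to 10 higher in KO.

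The replicate block (same-numbered pairs, exact sign-flip test) gave -10 genes with H3K4me3 (p = 0.5), a log2 of bases of -2.11 (p = 0.5), 2 genes with H3K4me1 (p = 0.5) and 0.5 H3K4me1 peaks within 50 kb (p = 1). The smallest p it allows is 0.5, and the labels do not say that the numbers pair the samples.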
